A study of Arabidopsis thaliana with 6 samples.

Results

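The plastid genome of Arabidopsis thaliana encodes the core of the photosynthetic machinery and part of its own gene expression apparatus, and 51 of its protein genes are described here. They were taken by symbol from the count tables: 5 genes of photosystem I, 15 of photosystem II, 6 of the cytochrome b6f complex, 6 of ATP synthase, 11 of the NADH dehydrogenase-like (NDH) complex, the Rubisco large subunit gene rbcL, 4 genes of the plastid-encoded RNA polymerase, and accD, matK and ccsA. All 51 symbols were present, in 52 of 32921 named rows, since ndhB, which lies in the inverted repeat, had 2 rows that were summed by symbol. The TAIR10.1 annotation placed every one of them on the plastid chromosome. The tables held 65 other plastid rows, among them ribosomal and transfer RNAs.

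The study asked how seedling transcripts differ between traffic noise and a quiet background. Whole wild-type seedlings on agar plates wrapped in foil were kept for 48 h in a sound-proof facility either with white noise at an average of 10 dB (control, 3 libraries) or with recorded city traffic at an average of 75 dB (traffic noise, 3 libraries). All 6 libraries share the genotype, the medium, the darkness and the exposure time, and the kind of sound and its level changed together. The labels give the tissue as whole seedlings but speak of seeds in describing the exposure, so the stage at which the sound began is uncertain. Seedling age and accession line are not given in the labels, which also do not say whether replicates came from separate plates, so a p-value here reflects the scatter among these libraries and nothing broader, and that scatter may be technical.

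Plastids carry their own circular genome, inherited from a cyanobacterial ancestor, and most of its genes lie in units transcribed together. A bacterial-type RNA polymerase, whose core subunits are the rpo gene products, transcribes most photosynthesis genes, while a nuclear-encoded phage-type polymerase transcribes the rpoB unit and accD. In plants kept in the dark, plastids develop as etioplasts, which lack assembled photosynthetic membranes. Plastid messenger RNAs usually lack the stable poly(A) tail of nuclear messages, and A-rich tails mark them for decay.

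The libraries were made with the QuantSeq kit, which primes with oligo-dT and reads the 3′ end of what is primed. Stretches of A inside or just past a gene are therefore shown before the levels. For each gene the longest run of A on its own strand was found in the gene and the 150 bases after it, in RefSeq TAIR10.1. The lines below give 30 bases around that run, 5′ to 3′ on the gene strand, with the run in capitals, for the 6 genes with the most counts, for rpoC2, and for psaA and petG, which had few or no counts.
petD: ttttggactAAAAAAAAAAAAgaaaataat
atpE: agctgacgtgtAAAAAAAAAgaatgtataa
psbM: tttactatcAAAAAAAAAAAAAgatttcaa
ndhC: tacaataatAAAAAAAAAAAAAgtaaaaaa
accD: ttttttgatAAAAAAAAAAAAAtttttgag
matK: agcggatcttcAAAAAAAAAgaatttgtat
rpoC2: cgagtagagAAAAAAAAAAAAAggattgaa
psaA: atagggatcccatAAAAActtctttcgagg
petG: tgatacaatctatgAAAtcacgctctgtag
Positions are those of the 30 bases printed. The petD stretch (Pltd:76726-76755, plus strand) holds a run of 12 and lies in the intron. The stretches of atpE (Pltd:52225-52254, run of 9), psbM (Pltd:28665-28694, run of 13) and ndhC (Pltd:49951-49980, run of 13) are on the minus strand, with the run past the end of the annotated gene. The accD stretch (Pltd:57363-57392, plus strand) has a run of 13 in the coding sequence. The matK (Pltd:2296-2325, run of 9) and rpoC2 (Pltd:17918-17947, run of 13) stretches, both on the minus strand, also have the run in the coding sequence. In the petG stretch (Pltd:66211-66240, plus strand) the run of 3 is past the gene end, and in the psaA stretch (Pltd:41785-41814, minus strand) the run of 5 is in the coding sequence.

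Totals over named rows were 17540009 to 20780363 counts per library, at which 3 counts correspond to 0.144 to 0.171 CPM (counts-per-million, scaled by TMM factors). Control 3 stood apart: 16128 rows were detected in it, against 20026 to 20287 in the others, and its mean correlation with the other libraries was 0.742 against 0.81 to 0.829. It was at 0 for 7 of the 51 genes and the lowest of the 6 libraries for 13. Control 1 had 16.1% of its counts on organelle rows, against 10.1% to 11.7% elsewhere. Summed markers overlapped between groups for shoot (2284 to 4013 CPM in controls, 2675 to 3364 CPM under traffic noise), root (57.4 to 75.9 and 66.1 to 68.7 CPM) and dark-grown seedlings (764 to 1132 and 580 to 972 CPM). Single markers were separated between groups all the same: CAB1, a shoot marker for a light-harvesting protein, was at 366, 884 and 700.5 CPM in controls and 1316, 1117 and 1293 CPM under traffic noise (adjusted p = 0.493 by edgeR and 0.0482 by DESeq2). The dark-grown seedling marker PIF3 was higher (7.73 to 15.5 CPM in controls, 18.8 to 22.4 CPM under traffic noise) and the root marker WER lower (8.37 to 14.8 and 5.57 to 7.24 CPM), with edgeR adjusted p-values of 0.758 and 0.756. Other tested markers of these lists overlapped between groups and went both ways. The log2 change was -0.52 ± 0.25 (SE) for RBCS1A against 1.06 ± 0.91 for STM (shoot). It was -0.26 ± 0.38 and -0.28 ± 0.24 for PORA and PORB against 0.77 ± 0.42 for HLS1 (dark-grown seedlings). Among root markers it was 0.10 ± 0.28 and 0.32 ± 0.40 for SHR and SCR against -1.96 ± 1.90 for PLT1. STM and PLT1 were low, with means of 4.59 and 1.69 CPM, and their errors are wide. Seed reserve markers were at 0 in control 3 and at 1.97 to 7.32 CPM in the rest. Of these 4 lists, 0 markers were at 0 in every library, and their part in the values below was not tested.

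The plastid genes took shares of the counts that overlapped between groups. They held 1.46%, 1.36% and 1.29% of the counts on named rows in controls 1 to 3 and 1.46%, 1.11% and 1.15% in traffic libraries 1 to 3. The means were 1.37% ± 0.0835 and 1.24% ± 0.196 (SD, n = 3 each), and the groups overlapped. The shares rested on 226857 to 303271 counts per library, so that the 95% Wilson intervals, which cover counting error only, were as narrow as 1.29% to 1.30% in control 3. Few genes supplied most of these counts: petD and atpE together made up 31.1% to 39.2% of them, the 6 most counted genes 62.4% to 73.3%, and the 25 least counted genes 1.01% to 2.61%. In whole seedlings, fewer cells with many plastids and less RNA per plastid cannot be told apart.

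By complex, the plastid RNA polymerase was the only one of the 8 groups of genes whose share of named counts did not overlap between treatments. Its 4 genes held 0.139%, 0.104% and 0.116% of named counts in the controls and 0.1001%, 0.0633% and 0.0836% under traffic noise, 0.1195% ± 0.0178 against 0.0823% ± 0.0184 (SD, n = 3). All 3 traffic libraries lay below the lowest control, by a small margin in traffic 1. Of its single genes, rpoC1 and rpoC2 did not overlap between groups, and rpoA and rpoB did. Among all tested rows, 8.99% did not overlap with traffic noise higher and 7.39% with traffic noise lower, so separation is not rare. The set of accD, matK and ccsA had 0.263% ± 0.034 in controls and 0.192% ± 0.0482 under traffic noise, which overlapped, but as a share of the counts on the 51 genes alone it had 20.67%, 18.11% and 18.52% in controls and 16.88%, 15.09% and 13.98% under traffic noise, which did not. The cytochrome b6f complex had 0.326% ± 0.0217 and 0.273% ± 0.0291. ATP synthase was nearly level, at 0.237% ± 0.0371 and 0.239% ± 0.0455, and the NDH complex stood at 0.2145% ± 0.0152 and 0.1975% ± 0.019. Both photosystems had higher means under traffic noise, photosystem I at 0.0305% ± 0.0241 in controls and 0.0527% ± 0.016, photosystem II at 0.176% ± 0.0519 and 0.201% ± 0.0238. In both, control 2 was the only control that reached or passed the traffic range, and the SD of the controls exceeded or matched the difference. The single Rubisco gene took 0.00516% ± 0.00193 and 0.00277% ± 0.00136.

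**Figure D1:**
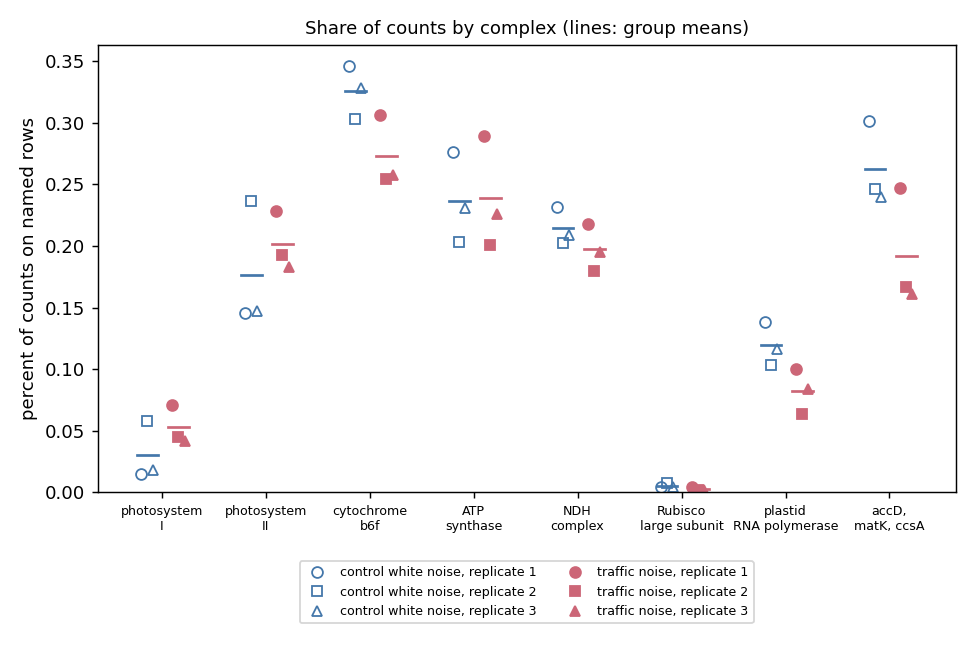
Share of the counts on named rows, in percent, held by each plastid complex in each of 6 libraries, with open blue symbols for control white noise, filled red symbols for traffic noise and lines for group means. The plastid RNA polymerase is the complex whose traffic libraries (0.0633% to 0.1001%) all lie below the controls (0.104% to 0.139%), while control 2 stands above the other controls in both photosystems.

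Across genes, 49 of the 52 rows had enough counts to be tested. edgeR's quasi-likelihood test called 0 of the 49 at an adjusted p of 0.05, against a background of 0.0% of all 19112 tested rows called higher and 0.0105% called lower under traffic noise. At an unadjusted p under 0.05 there were 0 rows higher and 7 lower (rpoC2, rpoC1, matK, ccsA, rpoB, rbcL and psbA), where 3.48% and 3.98% of all rows passed in these directions. The groups did not overlap, with traffic noise higher, in 2 rows (background 8.99%) and, with traffic noise lower, in 7 rows (background 7.39%). Fitted log2 changes were below 0 in 36 rows and above 0 in 13, where 47.5% of all rows were below 0. The median was -0.27, against 0.05 over all rows. Genes of 1 transcription unit share transcripts, so these rows are not independent of each other. DESeq2 called 3 rows lower (rpoC2, rpoC1 and matK) and 0 higher among the 28 to which it gave an adjusted p, with 2.98% and 1.92% of all its rows called lower and higher, and limma-voom called 0 (background 0.0209% higher and 0.0419% lower).

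**Figure D2:**
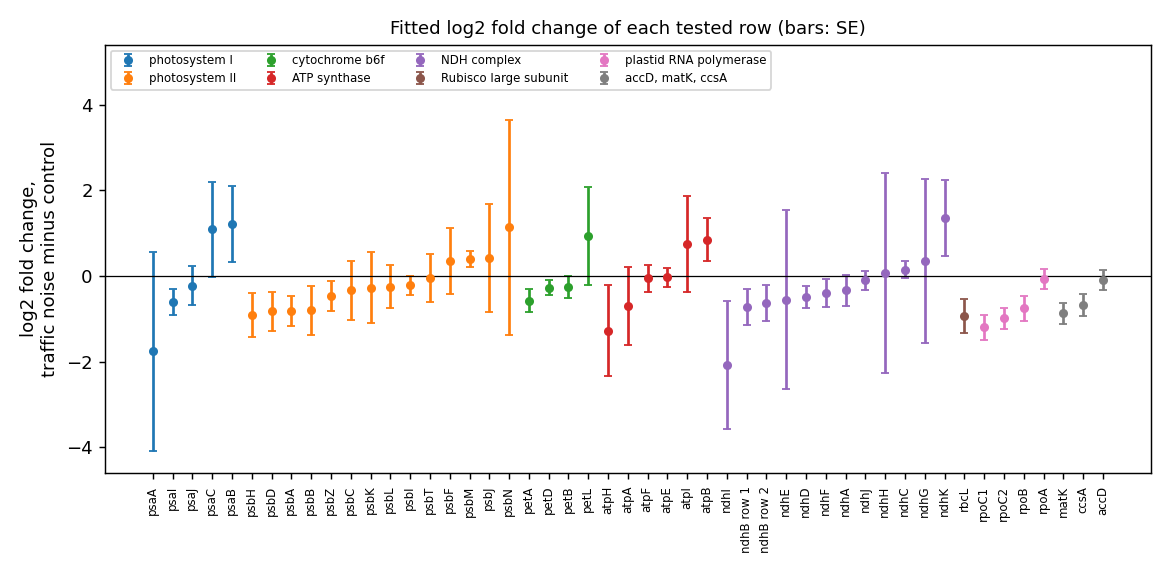
Fitted log2 fold change (traffic noise minus control) of the 49 tested rows, with bars for the standard error, coloured by complex and sorted within it. The 4 plastid RNA polymerase genes and accD, matK and ccsA all lie below 0, from -1.20 for rpoC1 to -0.06 for rpoA, and the bars are long for genes with few counts such as psaA and psbN.

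Of the plastid RNA polymerase genes, rpoC2 and rpoC1 had the lowest p-values of all 51 genes. The gene rpoC2, which encodes the β″ subunit, was at 399, 342 and 455 CPM in controls 1 to 3 and at 256, 158 and 189 CPM in traffic libraries 1 to 3. Every traffic library lay below every control, with a log2 change of -0.99 ± 0.24 (SE), an unadjusted p of 0.00182 and an adjusted p of 0.465 by edgeR. DESeq2 gave it an adjusted p of 0.0109. For rpoC1, the β′ subunit gene, the levels were 281, 160 and 252 CPM in controls and 138, 77.4 and 86.4 CPM under traffic noise. These groups did not overlap either, and the log2 change was -1.20 ± 0.30, with adjusted p-values of 0.465 by edgeR and 0.0113 by DESeq2. The β subunit gene rpoB, first in the same unit, had 163, 108 and 98.1 CPM in controls and 98.9, 57.9 and 62.7 CPM under traffic noise. Traffic 1 fell within the control range there, and the log2 change was -0.75 ± 0.29 with an edgeR adjusted p of 0.6. The α subunit gene rpoA lies elsewhere, beside ribosomal protein genes. It had 573, 432 and 371 CPM in controls and 495, 349 and 471 CPM under traffic noise, and the groups overlapped widely with a log2 change of -0.06 ± 0.24 (edgeR adjusted p = 0.987). With each library left out in turn or another scaling or tool, the log2 change of rpoC2 ranged from -1.20 to -0.82 and that of rpoC1 from -1.50 to -1.03, and edgeR's adjusted p passed for neither. Without control 3, edgeR gave rpoC2 -0.88 (adjusted p = 0.36) and rpoC1 -1.13 (adjusted p = 0.336).

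Among the genes outside the photosynthetic complexes, matK and ccsA had lower values under traffic noise, while the groups overlapped for accD. The maturase gene matK, whose product helps to splice plastid introns, stood at 1369, 972 and 1118 CPM in controls and at 852, 523 and 517 CPM under traffic noise. The groups did not overlap, and the log2 change was -0.87 ± 0.25, with an adjusted p of 0.493 by edgeR and 0.0291 by DESeq2. All 1515 bp of matK lie within the transfer RNA gene trnK on the same strand, so reads there may have been counted in both rows. The trnK row held 125005, 63603 and 74870 counts in controls and 61420, 53890 and 57601 under traffic noise. The gene ccsA, needed to attach haem to c-type cytochromes, was nearly constant in controls at 455, 452 and 461 CPM and was at 400, 215 and 238 CPM under traffic noise. All 3 traffic libraries were lower, 1 of them by little, with a log2 change of -0.68 ± 0.26 (edgeR adjusted p = 0.563). The accD gene, for a subunit of the acetyl-CoA carboxylase of fatty acid synthesis, had 1256, 1055 and 844 CPM in controls and 1187, 957 and 802 CPM under traffic noise. These values overlapped, and its log2 change was -0.10 ± 0.23.

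**Figure D3:**
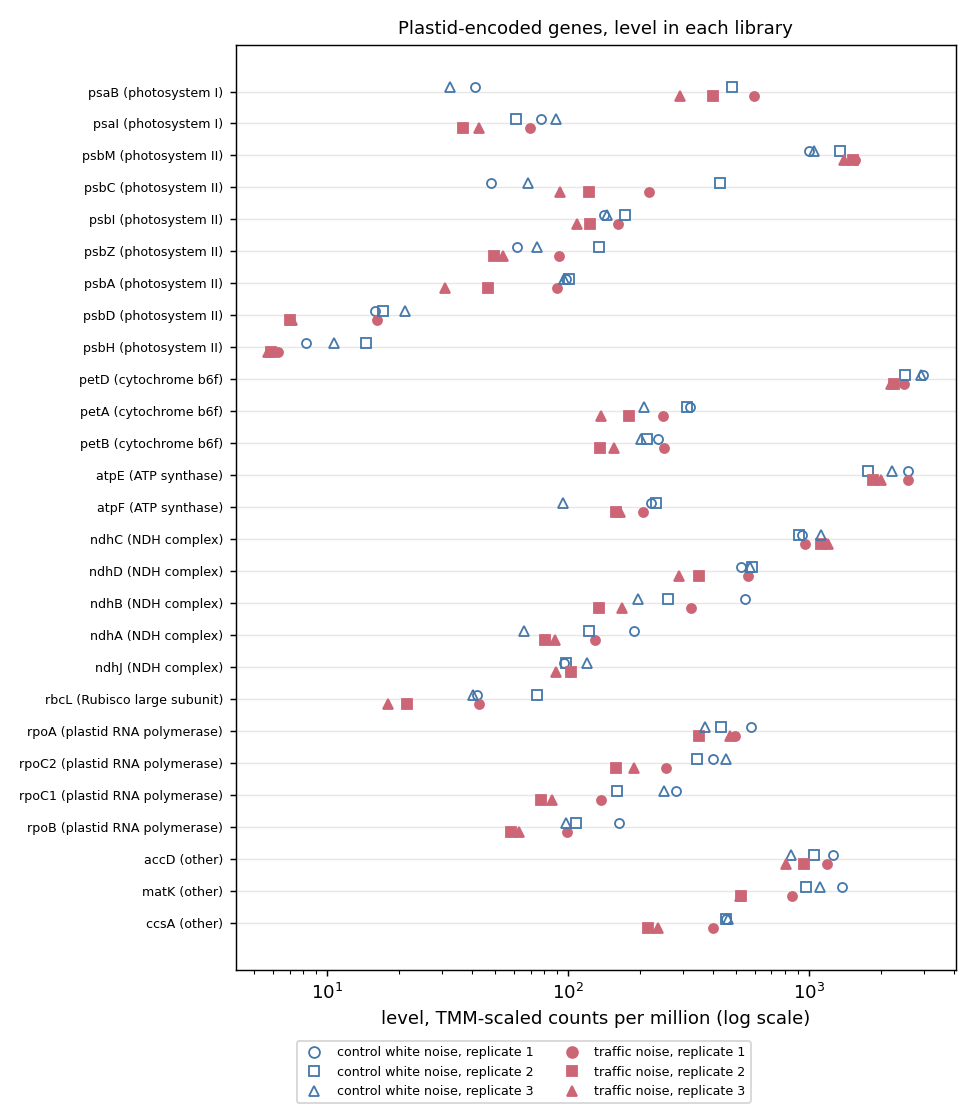
Level of 27 plastid genes in each library, in TMM-scaled CPM on a log axis, with open blue symbols for controls 1 to 3 and filled red symbols for traffic noise 1 to 3. Red symbols lie left of all blue ones for rpoC2, rpoC1, matK, ccsA, psbA, psbH and petD and right of them for psbM, and psaB and psbC have 1 control far from the other 2.

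Photosystem II, which splits water, gave values in both directions. The small subunit gene psbM was the only one of the 24 most counted genes with all traffic libraries higher: 1004, 1353 and 1052 CPM in controls against 1561, 1520 and 1405 CPM under traffic noise. The gap between control 2 and traffic 3 was narrow, and the log2 change of 0.40 ± 0.20 had an edgeR adjusted p of 0.732. As a share of the counts on the 51 genes, psbM took 8.22% ± 1.58 in controls and 12.3% ± 1.39 under traffic noise. The psbA gene, for the D1 protein of the reaction centre, was close to constant in controls at 98.6, 102 and 96.0 CPM. Under traffic noise it was at 90.4, 46.5 and 30.8 CPM, all lower, and the log2 change of -0.82 ± 0.35 had an edgeR adjusted p of 0.651. Its partner psbD, for the D2 protein, had 15.8, 17.2 and 21.1 CPM in controls and 16.2, 7.05 and 7.19 CPM under traffic noise. Those groups overlapped through traffic 1, and the log2 change was -0.83 ± 0.46.

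The antenna protein gene psbC, for CP43, showed how far 1 library could move a mean. It stood at 48.2, 427 and 68.1 CPM in controls and at 216, 122 and 92.7 CPM under traffic noise, with control 2 above everything else. The edgeR log2 change was -0.33 ± 0.68 with all libraries and 1.31 without control 2 (edgeR adjusted p = 0.183). With all libraries kept it was 0.28 by limma-voom and 0.29 with the replicate number as a block. Its direction thus depended on that library and on the model. The last 53 bp of psbD are also the start of psbC on the same strand. Of the small subunits, psbI had 141, 173 and 145 CPM in controls and 161, 124 and 109 CPM under traffic noise, and psbZ had 61.8, 135 and 74.4 CPM in controls and 92.3, 49.2 and 53.9 CPM under traffic noise. Both overlapped. The gene psbH, for a phosphorylated small subunit, was low throughout, at 8.20, 14.6 and 10.7 CPM in controls and 6.26, 5.87 and 5.73 CPM under traffic noise. The groups did not overlap, and the log2 change was -0.91 ± 0.52 (edgeR adjusted p = 0.788). The other 8 genes, psbB, psbE, psbF, psbJ, psbK, psbL, psbN and psbT, had means of 0.8 to 24.4 CPM, overlapped between groups, and included psbE, whose counts were too few to be tested.

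In photosystem I, psaB had the highest mean level but was below psaI in controls 1 and 3. This reaction centre gene was at 41.2, 480 and 32.5 CPM in controls and at 595, 402 and 292 CPM under traffic noise. Control 2 lay among the traffic libraries, while the other controls were far below them. The log2 change was 1.22 ± 0.89 (edgeR adjusted p = 0.889) with all libraries and 3.54 without control 2, where edgeR's adjusted p was 0.00983, the only setting in which edgeR called one of the 51 genes. Leaving out control 1 or control 3 instead gave 0.74 and 0.72, with edgeR adjusted p-values of 0.923 and 0.957. Over the whole data, edgeR called 31 rows without control 2 and 2 with all libraries. The gene of the partner protein, psaA, had 0 to 52 counts in a library and a mean of 0.798 CPM, although both encode large subunits of similar size. The small subunit gene psaI had 77.7, 60.9 and 88.9 CPM in controls and 69.9, 36.6 and 43.0 CPM under traffic noise, which overlapped through traffic 1. Means were 40.7 CPM for psaJ and 3.13 CPM for psaC, which encodes the subunit that binds the terminal iron-sulfur clusters.

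The cytochrome b6f complex, which passes electrons between the photosystems, owed most of its counts to petD. That gene, for subunit IV, had the highest level of all 51, at 2971, 2498 and 2914 CPM in controls and 2487, 2255 and 2194 CPM under traffic noise. The groups did not overlap, by a narrow margin, and the log2 change of -0.27 ± 0.18 equalled the median of the plastid rows (edgeR adjusted p = 0.855). Cytochrome f, from petA, had 320, 313 and 207 CPM in controls and 248, 179 and 137.5 CPM under traffic noise. Cytochrome b6, from petB, had 236, 214 and 201 CPM in controls and 250, 136 and 156 CPM under traffic noise. Both overlapped, with log2 changes of -0.57 ± 0.27 and -0.27 ± 0.26. Of the small subunits, petL averaged 16.1 CPM, petN had 12 counts in control 2 and 0 elsewhere, and petG was at 0 in every library, where 3 counts would be 0.144 to 0.171 CPM.

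ATP synthase and the NDH complex showed no gene apart from ndhK with separate groups. The ε subunit gene atpE was second in level, at 2577, 1760 and 2211 CPM in controls and 2585, 1851 and 1989 CPM under traffic noise. The ranges nearly coincided, and the log2 change was -0.03 ± 0.22. The gene atpF, for a stalk subunit of the membrane part, had 221, 231 and 95.6 CPM in controls and 206, 159 and 165 CPM under traffic noise, which overlapped too. The remaining 4 genes atpA, atpB, atpH and atpI averaged 3.76 to 19.2 CPM. The NDH complex, which returns electrons to the photosynthetic chain, was led by the membrane subunit gene ndhC with 938, 909 and 1123 CPM in controls and 965, 1122 and 1206 CPM under traffic noise. Its log2 change of 0.15 ± 0.20 was within the spread. Another membrane subunit gene, ndhD, had 521, 583 and 571 CPM in controls and 559, 350 and 288 CPM under traffic noise, and traffic 1 lay among the controls. For ndhB the levels were 545, 260 and 196 CPM in controls and 325, 134 and 168 CPM under traffic noise. Its 2 rows gave log2 changes of -0.72 ± 0.42 and -0.63 ± 0.42, but -0.14 and -0.10 without control 1 and -1.16 and -1.12 without traffic 1. How reads that match both copies were assigned is not given in the sources used here.

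The other NDH genes were lower. The membrane subunit gene ndhA had 189, 122 and 65.7 CPM in controls and 129, 80.3 and 88.6 CPM under traffic noise, and ndhJ, of the peripheral arm, had 96.1, 98.6 and 121 CPM and then 102, 103 and 89.6 CPM. Both overlapped. In ndhK, also of the peripheral arm, all traffic libraries were higher, at 10.2, 7.10 and 15.1 CPM against 5.404, 6.94 and 0.346 CPM. The low value was control 3, the margin over control 2 was small, and the log2 change of 1.35 ± 0.89 had an edgeR adjusted p of 0.852. The genes ndhE, ndhF, ndhG, ndhH and ndhI averaged 0.926 to 40.5 CPM and overlapped. The Rubisco gene rbcL, for the large subunit of the enzyme that fixes CO2, was modest in level, with 42.0, 74.4 and 40.3 CPM in controls and 42.8, 21.6 and 17.9 CPM under traffic noise. Traffic 1 lay within the control range, and the log2 change was -0.93 ± 0.39 (edgeR adjusted p = 0.641).

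Levels differed far more between genes than between treatments. Per kilobase of gene, psbM led with a mean of 12530 CPM per kb, followed by atpE (5418), ndhC (2876), petD (2142) and psbI (1282). The D1 gene psbA was 25th of 51 on this scale, at 72.8 CPM per kb, and rbcL 33rd, at 27.7 CPM per kb. The lowest were petG at 0, psaA at 0.354 and ndhH at 0.7835 CPM per kb. Since 3′ counts need not scale with gene length, both scales are given.

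The level of a gene went with its longest run of A. The 15 genes with a run of 9 or more had a median mean level of 448.5 CPM (375 CPM per kb), the 27 genes with runs of 6 to 8 had 18.6 CPM (70.3 CPM per kb), and the 9 genes with runs of 5 or less had 3.76 CPM (13.3 CPM per kb). All of the 6 most counted genes, whose sequences are shown above, were in the first of these classes, and petG, petN and psbE, the genes that could not be tested, had runs of 3. Across the 51 genes, Pearson's r between run length and log2(mean CPM + 0.1) was 0.733 and Spearman's rho 0.72, and r was 0.689 to 0.734 in single libraries. On the opposite strand r was 0.127, and with levels per kb 0.591. Runs sought in the gene alone gave 0.544, and in the gene plus 300 bases 0.68. With levels per kb these fell to 0.282 and 0.608, so the gene alone gave a weak correlation on that scale. These are correlations across genes of 1 genome, which share libraries and an A-rich base composition (31.4% and 32.3% A on the plus and minus strands) and are not independent. Longer genes hold more sequence in which a run can occur, and gene length itself had r = 0.382 with the level. For 16 other plastid protein genes r was 0.494, with 0.272 on the opposite strand and 0.329 with levels per kb, a weaker contrast between strands. The exception at the long end was atpB, with a run of 10 at the start of its coding sequence and 11.4 CPM. Run length had r = 0.047 with the log2 change between treatments over the 48 tested genes. How much of each level comes from priming at these runs was not tested.

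**Figure D4:**
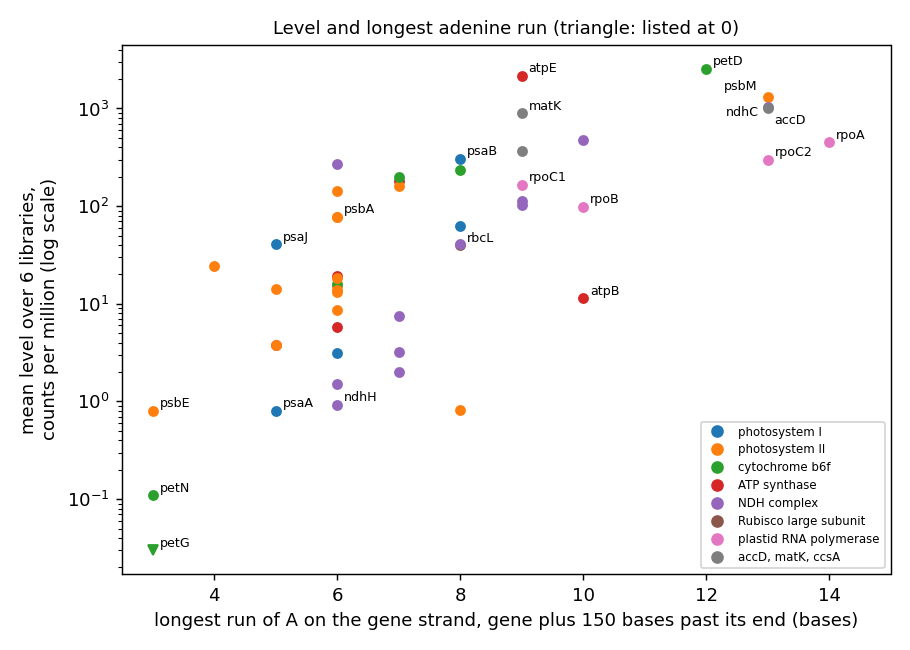
Mean level of each of the 51 genes over 6 libraries, in CPM on a log axis, against the longest run of A in the gene and the 150 bases past its end, coloured by complex. Levels are higher at longer runs (r = 0.733), with petD, atpE, psbM, ndhC, accD and matK at runs of 9 to 13 and petG, petN and psbE at runs of 3.

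Genes transcribed together had very unequal levels. In the psbB unit, mean CPM was 18.6 for psbB, 14.0 for psbT and 8.55 for psbH, then 199 for petB and 2553 for petD at the end of the unit, whose longest runs of A were 6, 6, 6, 7 and 12. The adjacent reaction centre genes psaA and psaB had 0.798 and 307 CPM, with runs of 5 and 8. The genes atpB and atpE, which overlap by 4 bp, had 11.4 and 2162 CPM, with runs of 10 and 9. The longer run had the lower level there. In the ndhC unit, ndhC had 1044 CPM, ndhK 7.51 and ndhJ 101.5, with runs of 13, 7 and 9. In the ndhH unit, ndhD (478.5 CPM, run of 10) and ndhA (112.5 CPM, run of 9) stood above ndhH, ndhI, ndhG, ndhE and psaC (0.926 to 3.23 CPM, runs of 6 or 7). The rpoB unit was more even, with 98.0, 166 and 300 CPM for rpoB, rpoC1 and rpoC2 in the order of transcription. Their runs were 10, 9 and 13. All 3 genes of that unit had log2 changes between -1.20 and -0.75. The psbB unit ranged from -0.91 ± 0.52 (SE) for psbH to -0.05 ± 0.56 for psbT, wide errors at low levels. Its more counted genes petB and petD had -0.27 ± 0.26 and -0.27 ± 0.18. Whether the 2 units differ in this was not tested.

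**Figure D5:**
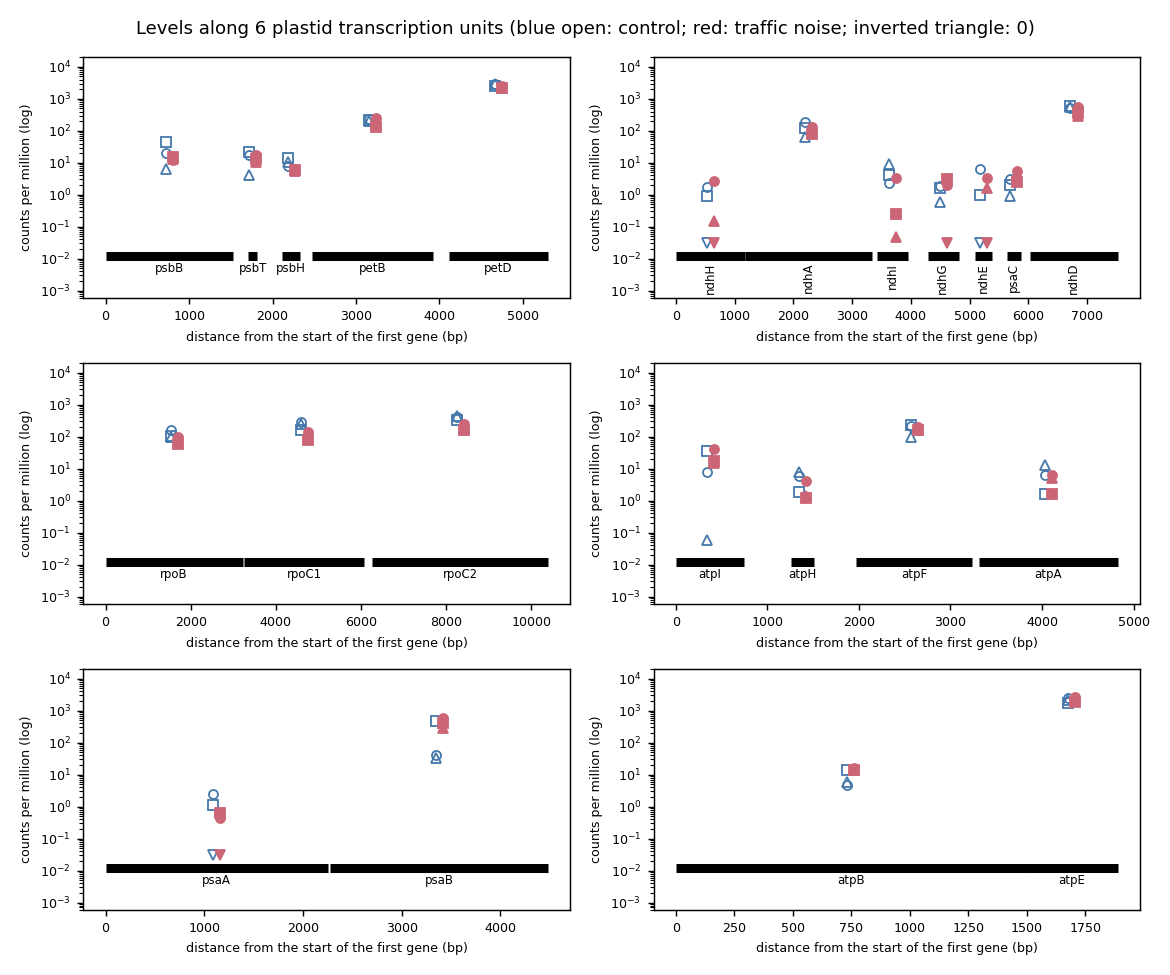
Level in CPM on a log axis for the genes of 6 plastid units, against distance in bp from the start of the first gene, with black bars for genes, open blue symbols for controls and filled red symbols for traffic noise. Within the psbB unit mean levels run from 8.55 CPM (psbH) to 2553 CPM (petD), and in the rpoB unit from 98.0 to 300 CPM, the narrowest span of the 6.

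Nuclear genes whose products work with these plastid proteins were read from lists beside them. By edgeR, 0 members of any of the 7 lists were called. Positive and negative log2 changes numbered 7 and 5 for photosystem I subunits (median 0.15), 3 and 8 for photosystem II (median -0.09), 4 and 1 for cytochrome b6f and ATP synthase (median 0.30), and 5 and 9 for the NDH complex (median -0.35). They numbered 1 and 7 for Rubisco small subunits and acetyl-CoA carboxylase (median -0.35), 4 and 17 for the plastid transcription machinery (median -0.43) and 4 and 15 for plastid RNA processing and stability factors (median -0.66). The last 2 lists had the lowest medians of the 7, where that of all tested rows was 0.05. Among RNA factors, the ribonucleoprotein gene CP29A had 819, 625 and 1214 CPM in controls and 486, 530 and 398 CPM under traffic noise, and RHON1, whose product binds plastid RNA, had 93.0, 61.7 and 225 CPM and then 47.5, 53.7 and 50.1 CPM. In both the groups did not overlap and control 3 was highest. Their log2 changes were -0.91 ± 0.26 and -1.33 ± 0.41, each with an edgeR adjusted p of 0.493, and DESeq2 gave 0.0305 and 0.0408. Of all rows to which DESeq2 gave an adjusted p, 2.98% were called lower and 1.92% higher. Many list members were not among those rows. In the transcription list, TRXz, a thioredoxin bound to the plastid RNA polymerase, had 31.0, 22.7 and 38.6 CPM in controls and 16.03, 12.8 and 19.3 CPM under traffic noise, with a log2 change of -0.94 ± 0.35 (edgeR adjusted p = 0.562). HMR, another polymerase-associated protein, had 57.0, 22.3 and 59.0 CPM and then 23.8, 24.5 and 23.8 CPM, and control 2 lay below the traffic libraries. PTAC6, with the highest mean of that list, had a log2 change of 0.24 ± 0.28. Genes taken by the same rule from the photosystem, cytochrome b6f, ATP synthase and NDH lists went both ways. Log2 changes were 0.88 ± 0.32 for PSAD-2, 0.36 ± 0.30 for PSAK, 0.72 ± 0.52 for PSBO2, 0.45 ± 0.24 for PETM, 0.50 ± 0.36 for ATPD and 0.87 ± 0.63 for PnsB4. For PSAG, PSBR, PSB28 and PnsB3 they were -0.155 ± 0.29, -0.06 ± 0.24, -0.88 ± 0.44 and -0.34 ± 0.22. PSAD-2 had 28.05, 42.2 and 32.0 CPM in controls and 39.8, 70.5 and 78.5 CPM under traffic noise, which overlapped (edgeR adjusted p = 0.545). PSBO2 had 4.57, 7.27 and 6.75 CPM and then 10.85, 9.56 and 10.2 CPM, which did not overlap (edgeR adjusted p = 0.883). Reads of the Rubisco small subunit genes may be shared among similar copies. RBCS1A had 1915, 2483 and 3310 CPM in controls and 2040, 1957 and 1371 CPM under traffic noise, and the groups overlapped. RBCS3B had 1708, 1658 and 1865 CPM in controls and 1263, 1417 and 1167 CPM under traffic noise, which did not overlap (edgeR adjusted p = 0.634). RBCS2B had 587, 436 and 949.5 CPM and then 462, 448 and 297.5 CPM, which overlapped (edgeR adjusted p = 0.642).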

How the data were processed

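RNA of 6 whole-seedling libraries, 3 per group, was read with a 3′ kit (Lexogen QuantSeq, per the labels' protocols). The authors deposited raw counts per gene symbol, 1 table per library. Bowtie2, bedtools and TAIR10 are named in the submitters' processing notes, without roles; strand use and treatment of reads with several matches are not stated there or in the labels. Of 33139 rows, 218 without a name (0.0431% to 0.0886% of counts) were left out. Totals were 17540009 to 20780363 counts, and 3 counts were taken as the floor of detection.

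Rows were filtered with filterByExpr, which kept 19112, scaled by TMM and tested with edgeR's quasi-likelihood F test (robust), with Benjamini-Hochberg adjustment over all 19112 rows and a threshold of 0.05. Standard errors divide the absolute log2 fold change by the root of the F statistic. CPM are TMM-scaled. Sums over genes are described without a test. The 51 genes and the lists were chosen with earlier results of these data known, and the window for A runs, its alternatives and the sequences shown were chosen with the levels in view. Values in every library are given for the 24 genes with the highest mean counts and the 3 lowest unadjusted p among the rest. They are also given for ndhK, where all traffic libraries were higher, and the other genes are named with means, ranges or counts. One sequence is not reported here. From each nuclear list the 2 lowest p and the highest mean were taken, and values in every library are given for some of them. Symbols were tied to loci through RefSeq TAIR10.1, which supplied gene positions and sequence and may not be the annotation used for counting.

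Alternatives were DESeq2 size factors, total counts, scaling from nuclear rows, no filter, DESeq2, limma-voom, the replicate number as a block, and leaving out each library. The fit was checked on simulated data. Software was R 4.3.3, edgeR 4.0.16, DESeq2 1.42.0, limma 3.58.1, Python 3.11.15, pandas 2.3.3, scipy 1.17.1, Biopython 1.88 and matplotlib 3.10.9.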

Additional observations from a re-analysis of the deposited data

How the results depend on the processing

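Over 28 named rows and 13 other settings, 18 of 364 log2 changes changed sign, in 7 rows, and 21 rows had none. The count of plastid rows called was 0 by edgeR under each scaling, without the filter and by limma-voom, was 3 by DESeq2 (rpoC2, rpoC1 and matK), and ran from 0 to 1 when 1 library was left out (psaB without control 2). Without control 2, edgeR called 31 of all rows, against 2 with all libraries. DESeq2 called 2 nuclear list members lower (RHON1 and CP29A), where it called 2.98% of all its rows lower and 1.92% higher. Many list members had no adjusted p by DESeq2. With 1 library left out, edgeR called 0 list members in each case. The median log2 change of the plastid rows ran from -0.68 without traffic 1 to -0.16 without control 2. Without control 3 it was -0.49.

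Sign changes were as follows. The log2 change of atpE was 0.008 with total counts, 0.11 without control 1, 0.084 without traffic 2 and 0.025 without traffic 3, within a range of -0.184 to 0.11 over single libraries left out. That of accD was 0.048 without control 1 and 0.028 without traffic 3 (range -0.257 to 0.048), and that of rpoA 0.128 without control 1 and 0.091 without traffic 2 (range -0.195 to 0.128). For atpF the values were 0.04 by limma-voom, 0.044 with the replicate block, and 0.111, 0.159 and 0.037 without control 1, control 2 and traffic 2 (range -0.356 to 0.159). For psbC they were 0.278 by limma-voom, 0.293 with the replicate block and 1.308 without control 2 (range -0.785 to 1.308). The value of ndhA was 0.084 without control 1 (range -0.643 to 0.084), and that of ndhJ 0.01 without control 3. The cause was not tested.

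As a percent of plastid protein gene counts, traffic noise minus control was -4.708 points for all 51 genes, 1.519 for photosystem I, 2.245 for photosystem II, -2.526 for cytochrome b6f, 0.7652 for ATP synthase, -0.4319 for the NDH complex, -0.1476 for rbcL, -2.136 for the RNA polymerase and -3.996 for accD, matK and ccsA. This scale has a smaller denominator. On it the 51 genes held 84.8%, 82.8% and 91.5% in controls 1 to 3 and 79.9%, 83.0% and 82.0% in traffic libraries 1 to 3. The groups overlapped, and control 3 was the highest. With 1 library left out, the difference in percent of named counts was -0.243 to -0.0638 for all genes, 0.0130 to 0.0361 for photosystem I, 0.00959 to 0.0550 for photosystem II, -0.0698 to -0.0428 for cytochrome b6f, -0.0231 to 0.0221 for ATP synthase, -0.0270 to -0.00806 for the NDH complex, -0.00318 to -0.00128 for rbcL, -0.0461 to -0.0276 for the RNA polymerase and -0.0987 to -0.0514 for accD, matK and ccsA. The r of A runs with level was 0.544 in the gene alone, 0.68 with 300 bases, 0.127 on the opposite strand and 0.591 per kb. Per kb it was 0.282 in the gene alone and 0.608 with 300 bases. These settings were chosen after seeing the data.

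Libraries with the same replicate number correlated at -0.009, 0.014 and 0.019 in their deviations from the group means, against -0.052 to 0.04 for different numbers. No pairing by number was seen, but with control 3 apart from the rest this check cannot exclude a shared batch. The fit with the replicate block called 0 plastid rows and 0 of all rows, had 12 plastid rows at an unadjusted p under 0.05 and a median of -0.31. Depth limits the 12 of the 51 genes with a mean under 100 counts. The common biological coefficient of variation over all rows was 0.757.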
